A study of Chlorocebus aethiops with 36 samples.

Results

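The unfolded protein response and the chaperones of the endoplasmic reticulum (ER) were followed here through 38 listed genes in liver biopsies of African green monkeys. Each gene was read from 1 probe set, annotated to it alone, and where several qualified from the one with the highest mean across the 36 arrays. Such a probe set was found for 37 of the 38 genes, out of 19775 genes in the series, and 36 of them lay above the filter on low values, out of 13634 tested genes. SYVN1, the ubiquitin ligase of ER-associated degradation, was not analysed here. EIF2AK3, the PERK sensor, had values of 3.35 to 3.97 on the log2 scale, under the filter of 4.46, and was not tested. The listed gene VIMP is SELENOS in the annotation and is called so below.

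The 12 animals, all male, were split into 2 arms of 6. One arm received a control anti-miR and the other anti-miR-33, an oligonucleotide that blocks the microRNA miR-33, both at 5 mg/kg under the skin, given 2 times a week for 2 weeks and then weekly for 10 weeks. Each animal was sampled at week -5 (baseline, untreated, normal chow), at week 4 (treated, chow) and at week 12 (treated, with the last 8 weeks on a diet high in carbohydrate and moderate in cholesterol), which gave 6 groups of 6 arrays. Baseline arrays were placed in an arm through the animal, whose later samples name it. Both arms were dosed and changed diet together, so dosing and time cannot be told apart from baseline to week 4, nor dosing, diet and time in the changes to week 12. The diet label of the week 4 array of control replicate 1 names the high carbohydrate diet, unlike those of the other week 4 arrays.

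Proteins that enter the secretory pathway fold in the ER with the help of chaperones and disulfide enzymes, and those that fail to fold are moved back to the cytosol and degraded. When unfolded protein builds up, the sensors IRE1 (ERN1), ATF6 and PERK start the unfolded protein response: IRE1 splices the XBP1 transcript, ATF6 is cut to release a transcription factor, and PERK slows translation while ATF4 is made. Hepatocytes secrete large amounts of plasma protein and have abundant ER, and the response also takes part in liver lipid metabolism.

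The arrays carry human probes and met transcripts of another primate, so a level was compared between groups for 1 probe set and never between genes. Hepatocyte markers were high in all groups: the mean of 16 of them lay between 11.61 and 12.22 on the log2 scale, the lowest value being the week 12 array of control replicate 5. The summary of 12 endothelial markers fell from a mean of 6.53 at baseline to 6.08 at week 4 and 6.00 at week 12, and 8 of 11 tested were lower at week 12 than at baseline in limma. Of 10 stellate and fibroblast markers tested, 5 were lower at week 12. Of all tested genes 16.5% were lower at week 12 than at baseline. The plasma cell summary, for the other cell type with abundant ER, lay between 5.51 and 6.16 over all arrays, and its markers JCHAIN, TNFRSF17 and POU2AF1 were below the filter. Of its 7 tested markers, 2 were called higher and 2 lower from baseline to week 4, and again 2 and 2 from week 4 to week 12. The shares of all tested genes were 15.1% higher and 20.6% lower, then 13.7% and 13.9%. In bulk tissue, fewer cells of a type and less RNA per cell cannot be told apart. The RNA 3′ minus 5′ value, the mean difference between the 3′ and 5′ control probe sets of GAPDH and ACTB, had medians of 2.64, 2.11 and 1.83 at the 3 times. The labels number the baseline and week 12 arrays in 1 run of consecutive numbers and the week 4 arrays in another, so this numbering and week 4 cannot be told apart.

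Between week 4 and week 12 many genes of the folding machinery rose, with both arms pooled. HSPA5 (BiP), the main Hsp70 chaperone of the ER, was 1.82-fold higher at week 12, and HSPA13, another Hsp70-type ATPase of the ER, was 2.02-fold higher. Of the 36 tested genes, 17 were higher and 3 lower by limma at an adjusted p below 0.05 (Benjamini-Hochberg over all tested genes, animal as a random block), against 13.7% of all tested genes higher and 13.9% lower. That is 55.6% of the members called, against 27.6% of all tested genes. The members were chosen with earlier results of these data known, so this share and those below are descriptive only. The median change was 0.29 log2 units over the 36 genes and 0.01 over all tested genes. Within the control arm alone 3 members were called higher and 0 lower, against 4.04% and 4.44% of all tested genes (8.49% in either direction), with 31 of 36 above 0 and a median of 0.24. Under anti-miR-33 alone 13 were called higher and 0 lower, against 5.32% and 7.19% (12.5% in either direction), with 32 above 0 and a median of 0.37; no member was called in the difference between the arms. Of the 20 pooled calls, 14 held under each of the alternative settings in which the gene was tested, and 20 of the 36 genes were higher in at least 10 of 12 animals.

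Between baseline and week 4, 2 of the 36 genes were called higher and 11 lower by limma, against 15.1% and 20.6% of all tested genes, with a median change of -0.07 against -0.01. The share called, 36.1%, was close to the 35.7% of all tested genes, so the count in this interval does not set the members apart. Of these 13 calls, 5 held under each alternative setting (HSPA13, HSP90B1, DNAJB11, CALR and SELENOS), and those of MANF (14 of 25 settings), ATF4 (17 of 25) and CREB3L3 (17 of 24) were among those that did not. Between baseline and week 12, 12 were called higher and 2 lower, against 10.9% and 16.5%, with a median of 0.19 against -0.01, and 38.9% of the members were called against 27.4% of all tested genes. None of these 14 calls held under each setting, and 10 held under each but the fit with the RNA value described below. The 3 comparisons share arrays, so their counts are given side by side. Of the 11 genes lower at week 4, 9 were called higher from week 4 to week 12, and none of these 9 was called higher at week 12 than at baseline. Genes picked for low week 4 values start the next interval from the same arrays, which favours a rise. No share of all tested genes is given beside this count, so it is not set against a background. Cell markers moved over the same intervals: 8 of 11 endothelial markers were lower at week 4 than at baseline, and 4 of 16 hepatocyte markers were called higher and 1 lower from week 4 to week 12. Their part in these results was not tested.

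**Figure D1:**
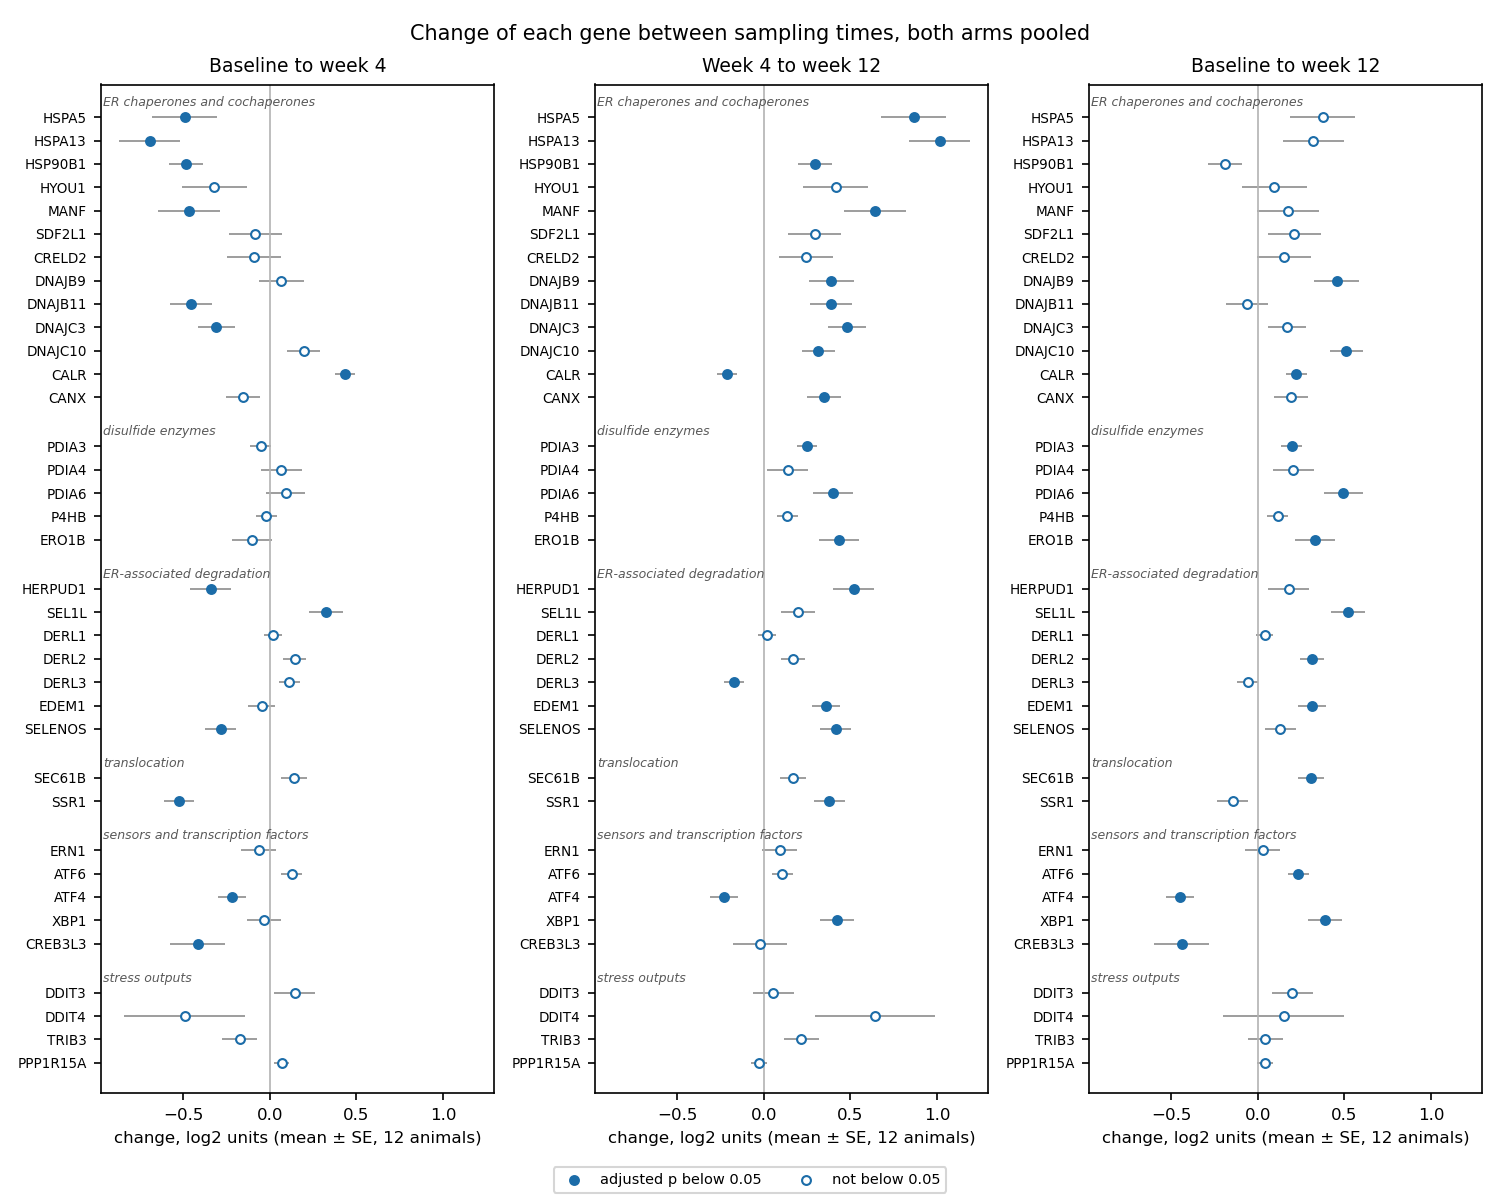
Change of each tested gene, in log2 units with its standard error, between baseline and week 4, week 4 and week 12, and baseline and week 12, with both arms pooled (12 animals) and filled points for an adjusted p below 0.05 in limma. Most chaperones lie left of 0 in the first panel and right of 0 in the second, where HSPA13 (1.01) and HSPA5 (0.86) lie farthest right.

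Among the 13 chaperones and cochaperones, 9 were called higher and 1 lower from week 4 to week 12, beside 13.7% and 13.9% of all tested genes. From baseline to week 4, 1 was called higher and 6 lower, beside 15.1% and 20.6%. HSPA5 values had a lowest, median and highest of 9.60, 9.94 and 10.62 before treatment, 8.78, 9.39 and 10.93 at week 4, and 9.45, 10.38 and 11.53 by week 12. The ranges overlapped, and the highest week 4 value belonged to anti-miR-33 replicate 6. HSPA5 was -0.49 ± 0.19 log2 units at week 4 relative to baseline (SE, adjusted p = 0.0385 in limma, lower in 9 of 12 animals), and rose by 0.86 ± 0.19 from week 4 to week 12 (adjusted p = 8.26e-04, higher in 11 of 12). The fall was called in 15 of 25 alternative settings, and the rise in each of them.

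HSPA13 ran from 4.92 through a median of 5.37 to 6.18 at baseline, from 4.07 through 4.70 to 5.46 at week 4, and from 5.10 through 5.56 to 6.81 at week 12. It fell by 0.69 ± 0.18 to week 4 (adjusted p = 0.00227 in limma) and rose by 1.01 ± 0.18 to week 12, in 12 of 12 animals (adjusted p = 7.5e-05). The ranges overlapped between 5.10 and 5.46.

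HSP90B1, the Hsp90 of the ER, had a lowest, median and highest of 8.95, 9.25 and 9.78 at baseline, then 8.36, 8.80 and 9.47 by week 4, and finally 8.86, 9.09 and 9.59 at week 12. The week 4 median was the lowest, and all ranges overlapped. It fell by 0.48 ± 0.10 to week 4 and rose by 0.29 ± 0.10 to week 12, and was the chaperone with the lowest week 12 value relative to baseline, at -0.19 ± 0.10 with an adjusted p of 0.151 in limma. Its second probe set above the filter moved the same way, by -0.76 and 0.57.

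MANF, a small ER protein that binds BiP and is also secreted, ran from 9.12 through a median of 9.49 to 10.15 at baseline, from 8.29 through 8.98 to 10.51 at week 4, and from 8.93 through 9.57 to 10.50 at week 12. The ranges overlapped, and it fell by 0.47 ± 0.18 and rose by 0.64 ± 0.18. The BiP cochaperone DNAJB11 fell by 0.45 ± 0.12 and rose by 0.39 ± 0.12, and DNAJC3, an inhibitor of PERK as well as a cochaperone, fell by 0.31 ± 0.11 and rose by 0.48 ± 0.11. DNAJB9, another cochaperone, showed no called change to week 4 (0.07 ± 0.13) and rose by 0.39 ± 0.13 to week 12, to 0.45 ± 0.13 above baseline. DNAJC10, a cochaperone with reductase activity, had a lowest, median and highest of 6.05, 6.65 and 7.03 before treatment, 6.42, 6.85 and 7.20 at week 4, and 6.86, 7.12 and 7.46 by week 12. It was likewise higher at week 12 than at week 4 (0.31 ± 0.09) and than at baseline (0.51 ± 0.09). The other DNAJC10 probe set above the filter gave 0.20 and 0.04 over these intervals. CANX, the membrane lectin chaperone calnexin, rose by 0.35 ± 0.10 from week 4 to week 12.

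CALR, the lumenal lectin chaperone calreticulin, was the exception on the probe set used here. Its values had a lowest, median and highest of 9.91, 10.09 and 10.21 at baseline, then 10.21, 10.49 and 11.02 by week 4, and finally 9.94, 10.34 and 10.48 at week 12, so the baseline and week 4 ranges met at 10.21 without crossing. CALR rose by 0.43 ± 0.06 to week 4 in 12 of 12 animals (adjusted p = 6.18e-07 in limma) and fell by 0.21 ± 0.06 to week 12 in 11 of 12. Another of its probe sets gave 0.41 and -0.05, and the third, also above the filter, gave -0.13 and 0.80. Neither the rise to week 4 nor the fall to week 12 was therefore shared by all its probe sets. The fall reversed to 0.18 when they were averaged. HYOU1 (0.41 ± 0.19), the exchange factor of BiP, SDF2L1 (0.29 ± 0.15), which works with DNAJB11, and CRELD2 (0.24 ± 0.16), an ER protein induced by stress, did not pass from week 4 to week 12 (adjusted p = 0.0978, 0.149 and 0.250 in limma).

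Of the disulfide enzymes, 0 of 5 were called between baseline and week 4 by limma, with 0 at an unadjusted p below 0.05 and changes of -0.10 to 0.09. Of all tested genes 35.7% were called in that interval. With the RNA 3′ minus 5′ value in the fit, PDIA3 (-0.22 ± 0.06, adjusted p = 0.0109 in limma) and ERO1B (-0.42 ± 0.13, adjusted p = 0.0180) were called lower in this interval. From week 4 to week 12, 3 of 5 rose, beside 13.7% of all tested genes. The same genes were higher at week 12 than at baseline, beside 10.9%. With the RNA value in the fit, their changes from baseline to week 12 were 0.08 for PDIA6, -0.038 for ERO1B and -0.0042 for PDIA3. None of these was called. PDIA6 values had a lowest, median and highest of 8.66, 9.27 and 9.43 before treatment, 8.74, 9.18 and 9.90 at week 4, and 9.05, 9.73 and 10.33 by week 12, and the gene was higher at week 12 than at week 4 in 12 of 12 animals. The change was 0.40 ± 0.11 from week 4 and 0.49 ± 0.11 from baseline. ERO1B, the oxidase that recharges these enzymes, rose by 0.43 ± 0.12, and PDIA3, which acts on glycoproteins held by the lectin chaperones, by 0.25 ± 0.06 in 12 of 12 animals. PDIA4 (0.14 ± 0.12) and P4HB, protein disulfide isomerase itself (0.14 ± 0.06), did not pass. The stronger of the other P4HB probe sets gave 0.545 to week 4 and 0.65 from baseline to week 12, and the weaker gave 0.004 and 0.16.

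In ER-associated degradation, 3 of 7 tested genes rose and 1 fell from week 4 to week 12, beside 13.7% and 13.9% of all tested genes. HERPUD1, a scaffold of the degradation complex, had a lowest, median and highest of 8.92, 9.27 and 9.61 at baseline, then 8.38, 8.87 and 9.58 by week 4, and finally 8.87, 9.35 and 10.18 at week 12. It fell by 0.34 ± 0.12 and then rose by 0.52 ± 0.12 (adjusted p = 0.00137 in limma), and its weaker probe set gave -0.01 and 0.17. SELENOS, a membrane partner of the retrotranslocation complex, ran from 8.95 through a median of 9.23 to 9.55 at baseline, from 8.44 through 8.94 to 9.62 at week 4, and from 9.07 through 9.30 to 9.78 at week 12. The ranges overlapped, and the gene fell by 0.28 ± 0.09 and rose by 0.41 ± 0.09 in 12 of 12 animals. EDEM1, which directs misfolded glycoproteins to degradation, rose by 0.36 ± 0.08, also in 12 of 12, with values of 5.22 to 5.98 at week 4 and 5.71 to 6.34 at week 12.

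SEL1L, the adaptor of the SYVN1 ligase, took another course. It ran from 9.21 through a median of 9.69 to 10.37 at baseline, from 9.85 through 10.07 to 10.51 at week 4, and from 9.94 through 10.29 to 10.64 at week 12. Its lowest value moved up more than its highest. It rose by 0.32 ± 0.10 to week 4, and was 0.52 ± 0.10 above baseline at week 12 in 11 of 12 animals (adjusted p = 1.15e-04 in limma). With the RNA value in the fit these changes were -0.04 and 0.09, and neither was called. The derlins, membrane proteins of the retrotranslocation channel, differed among themselves. DERL1 was not called in any of these comparisons (0.04 ± 0.05 from baseline to week 12), DERL2 was 0.31 ± 0.07 above baseline at week 12 (values of 6.83 to 7.60 at baseline and 7.34 to 7.93 at week 12), and DERL3 fell by 0.17 ± 0.06 from week 4 to week 12. The other DERL2 probe set gave -0.0033 over the interval from baseline to week 12. With the RNA value in the fit the DERL2 change over that interval was 0.12 and was not called.

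Of the 2 translocation genes, SSR1, a subunit of the translocon-associated complex, had a lowest, median and highest of 8.44, 8.75 and 9.27 before treatment, 7.91, 8.20 and 8.83 at week 4, and 8.14, 8.63 and 8.99 by week 12. It fell by 0.52 ± 0.09 in 11 of 12 animals (adjusted p = 1.94e-05 in limma) and rose by 0.38 ± 0.09 in 10 of 12. Its 3 other probe sets above the filter changed by -0.02, -0.13 and -0.02 to week 4, under 50% of the size, and by 0.35, 0.24 and 0.12 to week 12. SEC61B, a subunit of the translocation channel, was 0.31 ± 0.08 above baseline at week 12 and was not called from week 4 to week 12 (0.17 ± 0.08).

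The transcription factors moved apart. XBP1, the target of IRE1, had a lowest, median and highest of 6.98, 7.33 and 7.60 at baseline, then 6.83, 7.26 and 8.13 by week 4, and finally 7.10, 7.72 and 8.39 at week 12. It rose by 0.42 ± 0.10 from week 4 to week 12 in 12 of 12 animals (adjusted p = 0.00179 in limma), and the array does not separate its spliced form. Its second probe set, close to the filter at a mean of 4.52, gave 0.02. ATF4, the factor made under PERK signalling, had a lowest, median and highest of 9.74, 10.26 and 10.49 before treatment, 9.86, 10.00 and 10.24 at week 4, and 9.50, 9.72 and 10.35 by week 12. It fell by 0.22 ± 0.08, by 0.23 ± 0.08 and, from baseline to week 12, by 0.45 ± 0.08 (adjusted p = 6.27e-05 in limma, lower in 11 of 12 animals). With the RNA value in the fit these changes were -0.09, -0.21 and -0.30, and only that from week 4 to week 12 was called.

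CREB3L3, a liver factor of the same membrane-bound class as ATF6 that acts on lipid genes, had a lowest, median and highest of 5.11, 6.10 and 6.66 at baseline, then 5.11, 5.57 and 6.03 by week 4, and finally 4.89, 5.50 and 6.84 at week 12. It fell by 0.42 ± 0.16 to week 4 and was at -0.02 ± 0.16 from week 4 to week 12. ATF6 was 0.23 ± 0.06 above baseline at week 12, and its other probe sets above the filter gave 0.41, -0.08 and 0.21. With the RNA value in the fit its change was 0.06 and was not called. ERN1, the IRE1 sensor, was not called in any of the 3 comparisons, with changes of -0.06 to 0.09.

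None of the 4 stress outputs was called between any times by limma, although 1 of them, TRIB3, had an unadjusted p below 0.05 from week 4 to week 12. Of all tested genes 35.7% were called from baseline to week 4, 27.6% from week 4 to week 12 and 27.4% from baseline to week 12. DDIT3 (CHOP), the factor linked to cell death under prolonged stress, had a lowest, median and highest of 6.78, 7.09 and 7.38 before treatment, 6.72, 7.16 and 7.90 at week 4, and 6.74, 7.20 and 8.13 by week 12. The week 4 and week 12 ranges reached higher than at baseline and all overlapped, and the changes were 0.14 ± 0.12, 0.06 ± 0.12 and, from baseline to week 12, 0.20 ± 0.12 (95% interval -0.04 to 0.44). PPP1R15A, which restores translation by dephosphorylating the target of PERK, changed by -0.03 ± 0.04 from week 4 to week 12 (95% interval -0.12 to 0.06). TRIB3, a pseudokinase induced by ATF4 and DDIT3, changed by 0.22 ± 0.10 (adjusted p = 0.0984 in limma). DDIT4, an inhibitor of mTOR signalling that also answers to other stresses, varied most, from 5.90 to 10.14 over the 36 arrays, and its change from week 4 to week 12 of 0.64 ± 0.35 had a 95% interval of -0.06 to 1.34.

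**Figure D2:**
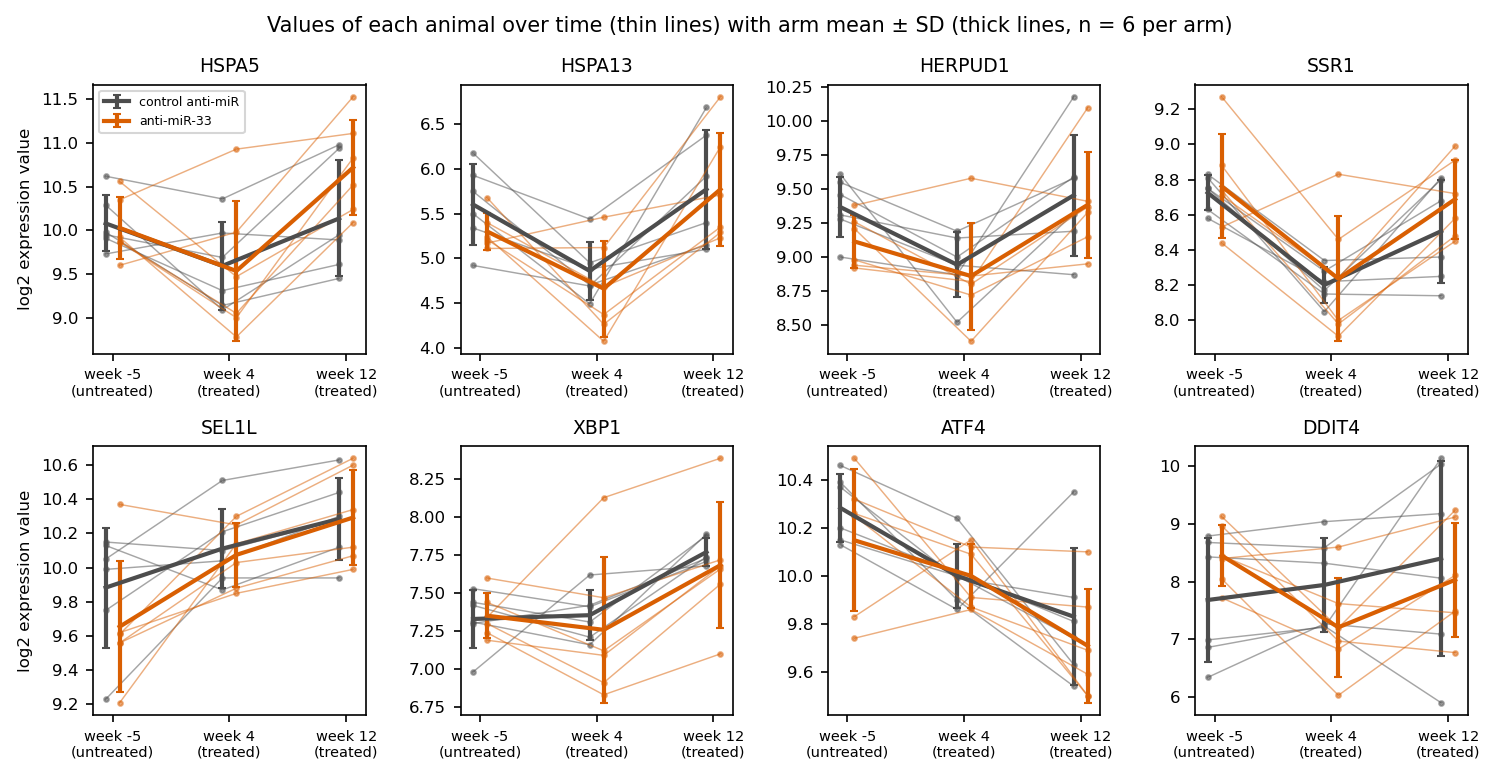
Log2 expression values of 8 genes in each animal at the 3 times (thin lines), with the mean and SD of each arm (thick lines, n = 6 per arm). HSPA5, HSPA13, HERPUD1 and SSR1 dip at week 4, SEL1L steps up and ATF4 steps down, XBP1 is higher at week 12, and DDIT4 scatters from 5.90 to 10.14 with no shared course.

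The RNA 3′ minus 5′ value fell over the same times, with means of 2.57, 1.94 and 1.83, and was therefore also entered as a covariate. Most of the fall lay between baseline and week 4. In the intervals that start at baseline, this value and time cannot be fully told apart. From baseline to week 4 the members above 0 went from 13 to 4 of 36 and the median from -0.07 to -0.14, with 2 called higher and 10 lower. That is 33.3% of the members, against 25.2% of all tested genes. From week 4 to week 12 the count of called members was 20 with and without it, and the median change was 0.28 with it. The mean RNA value differed little between these weeks, so the covariate had little room to move these changes. From baseline to week 12 the count went from 14 to 0, with 24 of 36 genes above 0 and a median of 0.08. At an unadjusted p below 0.05 in limma there were 4 members. Of all tested genes 5.62% were called, against 27.4% without the covariate. The PDIA6 change went from 0.49 to 0.08 and that of SEL1L from 0.52 to 0.09, whereas XBP1 was at 0.36 and ATF4 at -0.30. Another probe set also disagreed, by opposite sign or under 50% of the change, for 6 of the 8 called members that had one from baseline to week 12, for 5 of 11 from week 4 to week 12 and for 3 of 6 from baseline to week 4.

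**Figure D3:**
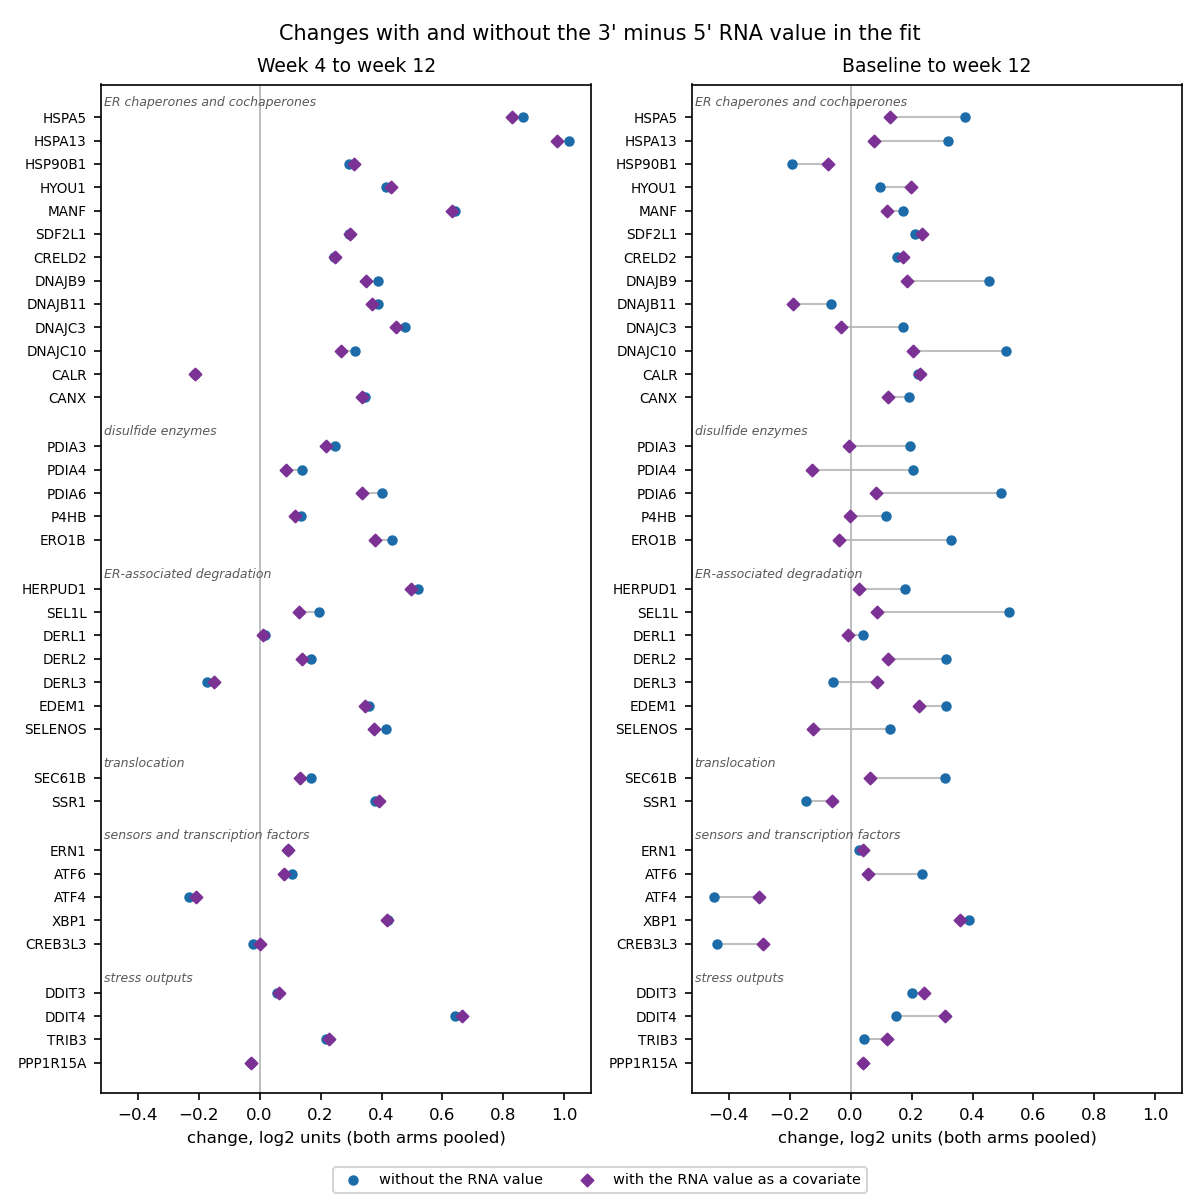
Change of each tested gene in log2 units, both arms pooled, without (circles) and with (diamonds) the RNA 3′ minus 5′ value in the fit. From week 4 to week 12, where the mean RNA value differed little (1.94 and 1.83), the points nearly coincide. From baseline to week 12 many move toward 0, PDIA6 from 0.49 to 0.08.

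Anti-miR-33 and control animals were compared at each time, to ask whether blocking miR-33 changed the response. No member was called between the arms at baseline, week 4 or week 12, or in the difference between arms in any change over time, and the same held for all 13634 tested genes in limma (percent called 0.0 in each). At an unadjusted p below 0.05 there were 1, 2 and 2 members at baseline, week 4 and week 12, beside 531, 662 and 414 of all tested genes. For the differences in change there were 2, 0 and 1 members, beside 478, 487 and 299 genes, from baseline to week 4, week 4 to week 12 and baseline to week 12. The ranges of the arms overlapped for each member at each time.

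HSPA5 differed most between the arms among chaperones at week 12. Control values had a lowest, median and highest of 9.45, 9.92 and 10.98 and anti-miR-33 values of 10.09, 10.68 and 11.53, so the ranges overlapped between 10.09 and 10.98. The difference was 0.58 ± 0.29 log2 units (95% interval 0.00 to 1.17, unadjusted p = 0.0498 and adjusted p = 0.998 in limma), against -0.06 ± 0.29 at week 4 and -0.05 ± 0.29 at baseline. HSPA5 rose by 1.19 ± 0.26 from week 4 to week 12 under anti-miR-33 (adjusted p = 0.00361 in limma), and changed by 0.54 ± 0.26 under control (adjusted p = 0.200). The difference between these changes, 0.64 ± 0.37, had a 95% interval of -0.12 to 1.40 and was not called (adjusted p = 0.999).

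PDIA3 was 0.24 ± 0.09 higher under anti-miR-33 at week 12, with values of 11.98 to 12.38 against 11.60 to 12.10 in controls (unadjusted p = 0.0111 and adjusted p = 0.998 in limma). Its other probe sets above the filter gave 0.09 and -0.02. At week 4, P4HB was 0.26 ± 0.09 higher and TRIB3 was 0.35 ± 0.15 lower, at -0.35, with unadjusted p = 0.00842 and 0.0269 and the same adjusted p of 0.998 in limma. Other probe sets above the filter gave 0.08 and 0.18 for P4HB and -0.17 for TRIB3. At baseline, before treatment, ERO1B differed by -0.37 ± 0.18, a larger difference in size than those of PDIA3, P4HB and TRIB3. Over the 13 chaperones at week 12, 11 differences were above 0 with a median of 0.18, and over the 36 members 25 were, with a median of 0.08, against -0.0017 over all tested genes. Hepatocyte markers were above 0 in 16 of 16, with a median of 0.14, and their mean was lowest in the week 12 array of control replicate 5. Without that array the medians were 0.13 for the chaperones (12 of 13 above 0), 0.03 for the members and 0.04 for the hepatocyte markers. HSPA5 then differed by 0.53, and 0 of 13 chaperones had an unadjusted p below 0.05 in limma. The stress outputs had a median of -0.08. DDIT4 changed by 0.26 ± 0.49 from baseline to week 4 in controls and by -1.25 ± 0.49 under anti-miR-33, a difference of -1.51 ± 0.69 that was not called. Part of it lay at baseline, before treatment, where the DDIT4 means were 7.68 in controls and 8.45 in the anti-miR-33 arm. At week 4 they were 7.94 and 7.21.

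**Figure D4:**
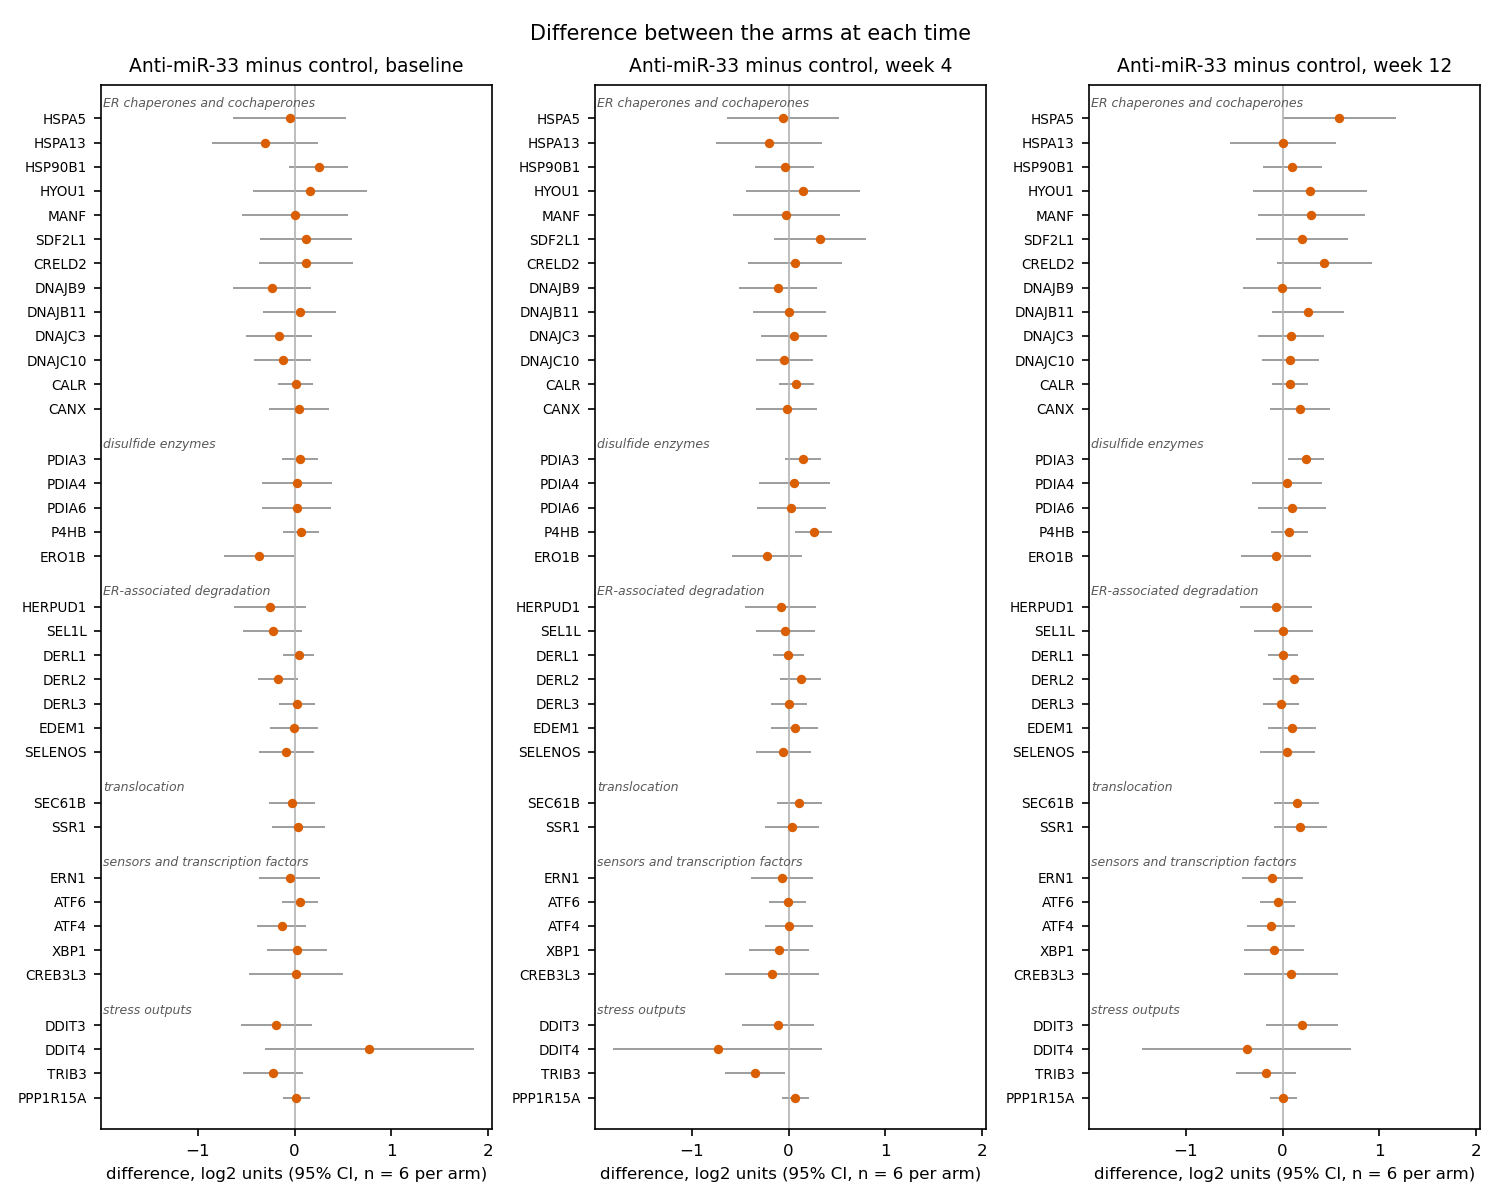
Difference between anti-miR-33 and control animals (6 per arm) for each tested gene at baseline, week 4 and week 12, in log2 units with 95% confidence intervals. Nearly all intervals include 0, and DDIT4 has the widest. Those of HSPA5 (0.58, just above 0 at its lower end) and PDIA3 (0.24) at week 12 do not. Nor do those of P4HB (0.26) and TRIB3 (-0.35) at week 4 and of ERO1B (-0.37) at baseline.

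The members also varied together between animals. The change of HSPA5 from week 4 to week 12 ran from -0.08 to 1.83 over the 12 animals, and Pearson's r between it and the change of each other member was at least 0.7 for 9 of 35, which is 25.7%, against 1.17% of all tested genes. From baseline to week 12 it was 17 of 35, or 48.6%, against 2.29%. The median r was 0.48 and 0.65, against -0.02 and -0.03 over all tested genes. After Benjamini-Hochberg adjustment over all tested genes no correlation passed in a permutation test with 100000 resamples (smallest adjusted p 0.273 and 0.0682), and 16 and 21 members had an unadjusted p below 0.05. The changes share arrays and were measured on the same RNA, and the members were chosen with earlier results of these data known.

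MANF followed HSPA5 most closely among the members from week 4 to week 12 (r = 0.92, rho = 0.91, permutation p = 9e-05 and 1.5e-04, r = 0.88 without the 2 animals farthest from the median), with r = 0.96 within the control animals and 0.97 within the anti-miR-33 animals. CANX had r = 0.88 and rho = 0.92 (permutation p = 1.3e-04 and 5e-05), and 0.86 without those animals. DDIT3 had r = 0.86 and rho = 0.87 (permutation p = 7.4e-04 and 5.9e-04), and 0.93 without them, though its mean change was 0.06. DDIT3 was higher at week 12 in 5 of the 12 animals and lower in 7. CRELD2, also not called as a group, had r = 0.83 and rho = 0.85 (permutation p = 0.00105 and 9.7e-04). Over all tested genes MANF ranked 2 in this interval, after MORF4L2 (r = 0.93), which is not a member. From baseline to week 12 ERLEC1, not a member, ranked 1 (r = 0.96), and DNAJC3 was the first member at rank 4.

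The relation was not general. From week 4 to week 12, PDIA6 (r = -0.11), ATF6 (-0.27) and P4HB (-0.35) had the lowest r of the members, and EDEM1 (0.10), SEL1L (0.11) and DERL1 (0.01) lay near 0, although PDIA6 and EDEM1 rose in 12 of 12 animals. Within the 6 anti-miR-33 animals 19 members had r of at least 0.7, and within the 6 control animals 12. With 6 animals an r of 0.7 is reached more easily than with 12. DNAJC10 had r = 0.89 in the anti-miR-33 animals and -0.75 in the controls. From baseline to week 12 the count was 10 without anti-miR-33 replicate 4, in which HSPA5 reached 11.53. No share of all tested genes is given beside these counts, so they are not set against a background.

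**Figure D5:**
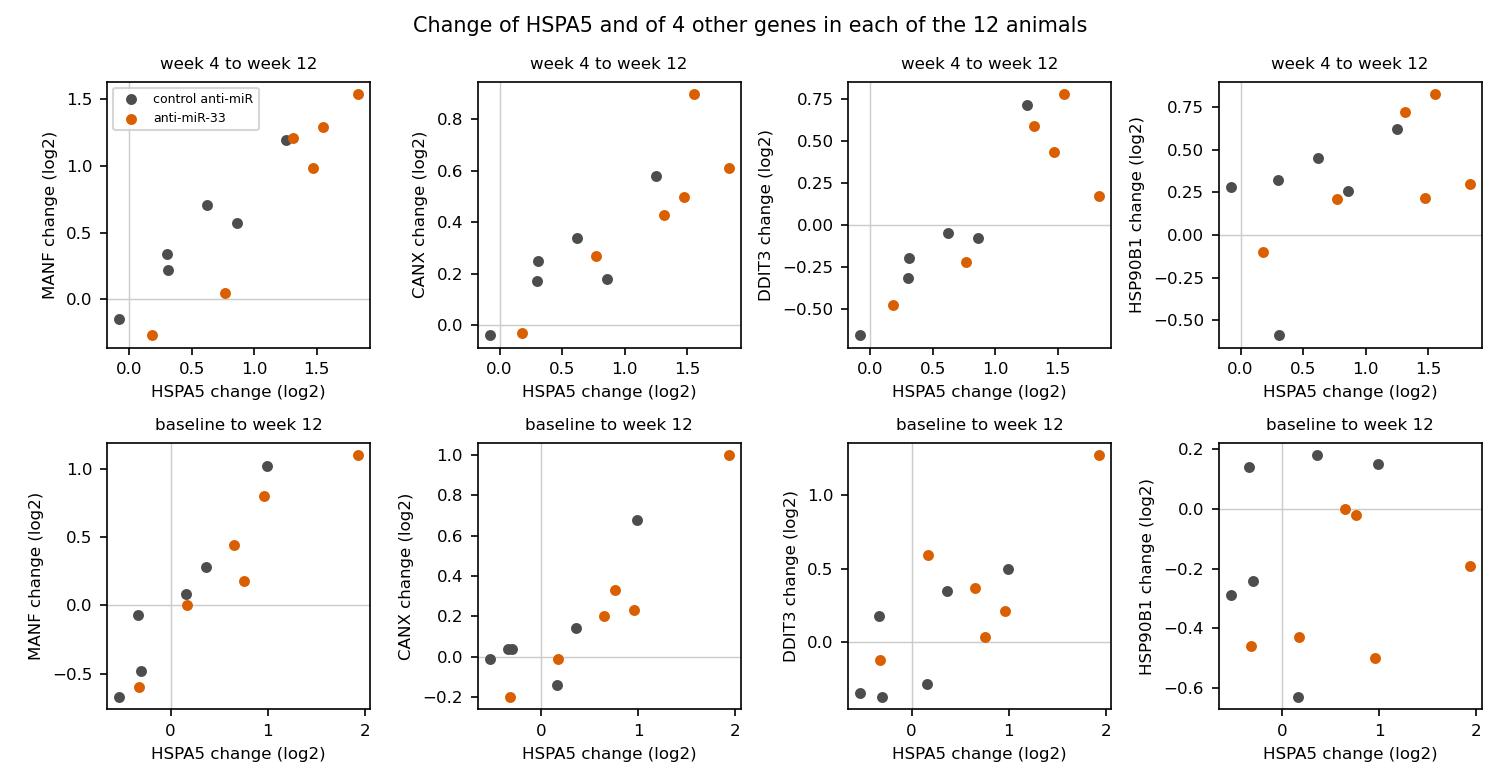
Change of MANF, CANX, DDIT3 and HSP90B1 against that of HSPA5 in each of the 12 animals, in log2 units, from week 4 to week 12 (top) and baseline to week 12 (bottom), coloured by arm. MANF and CANX rise along with HSPA5 in both intervals (r = 0.92 and 0.88 in the first); HSP90B1 does so less (r = 0.54 in the first and 0.16 in the second).

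Other genes of the pathway were taken from lists drawn up by function, though with earlier results of these data known. From week 4 to week 12, 13 of 21 genes of COPII vesicles, KDEL receptors and Golgi transport, which carry folded protein out of the ER and return chaperones to it, rose and none fell in limma, including SEC24D (0.67 ± 0.14), ARF4 (0.59 ± 0.09), SEC23B (0.55 ± 0.09) and KDELR3 (0.36 ± 0.07). Of 20 genes of signal peptide translocation and processing, 11 rose and none fell, led by SPCS2 (0.46 ± 0.10) and SRPRB (0.45 ± 0.09). Of 15 other folding genes, 6 rose, among them SELENOF (0.56 ± 0.11), and 1 fell. Of 19 other degradation genes, 8 rose (42.1%) and 4 fell (21.1%). Of all tested genes 13.7% rose and 13.9% fell in this interval. The list medians were 0.24, 0.19, 0.14 and 0.13 log2 units in that order, against 0.01 over all tested genes.

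Of 20 targets of PERK and ATF4 signalling, 2 rose from week 4 to week 12 (CEBPB at 0.41 ± 0.14 and EIF2S1 at 0.26 ± 0.06), and PHGDH, which starts serine synthesis, fell by 0.62 ± 0.11. From baseline to week 12, 4 of them rose, among them PSAT1, also of serine synthesis, at 1.38 ± 0.24, and 3 fell, beside 10.9% and 16.5% of all tested genes. Of 12 cytosolic heat shock genes, 2 rose from week 4 to week 12. For both lists the share that rose from week 4 to week 12 lay near the 13.7% of all tested genes. The list medians were 0.09 and 0.13 over that interval. From baseline to week 4, 9 of 21 transport genes (42.9%) and 4 of 12 heat shock genes (33.3%) fell and none rose, including HSP90AA1 by 0.91 ± 0.16. Of all tested genes 20.6% fell and 15.1% rose in that interval.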

How the data were processed

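Total RNA of 36 liver biopsies was extracted with Trizol, biotin-labelled with the Enzo method and hybridised to a human Affymetrix array, per the labels' protocols. The authors deposited log2 values of 54675 probe sets, made with RMA per the submitters' processing notes; its version is not given in the sources used here. All 36 columns were matched to samples and 0 were unused. Symbols are those of the platform annotation, which can be old: 41097 probe sets had 1 gene, 1801 several and 11777 none listed.

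One probe set per gene was kept, that of highest mean, and genes below the median probe set mean (4.46) were left out. All arrays were fitted with limma 3.58.1 in R 4.3.3, using a mean for each of the 6 groups, a random block for the animal (correlation 0.151) and two-sided moderated tests, with Benjamini-Hochberg adjustment over 13634 genes and a threshold of 0.05. Errors are standard errors unless stated. The replicates are separate animals, and their number limits the precision. The pairing comes from the animal identifiers in the labels: deviations from the group means had a median correlation of 0.264 (0.0464 to 0.496) over 36 pairs of arrays of the same animal, and -0.032 over 396 pairs of different animals.

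Correlations used Python and 100000 permutations, adjusted over all tested genes in place of the planned adjustment over the members. The fits were tested on simulated data. Every member is named by role; values by array are given for HSPA5, HSP90B1, DDIT3, XBP1, ATF4, CREB3L3 and HERPUD1, for the called members of smallest adjusted p and, added later, for MANF and DDIT4. The members and lists were chosen with earlier results of these data known.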

Additional observations from a re-analysis of the deposited data

Results flagged for a closer look

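In 16 genes with values given per array, 96 groups of 6 were searched for an array standing apart from the other 5, measured by its gap to the nearest of them relative to the group's range. Such a search flags about 1 group in 20 by chance, and 6 groups were found. At week 4, HSP90B1 was 9.47 in control replicate 4, against 8.60 to 8.92 in the other controls. In the same group CALR was 10.21 in control replicate 1, against 10.49 to 10.58, and SELENOS was 9.62 in that array, against 8.76 to 9.06; it is the array whose diet label differs. CALR was 11.02 in anti-miR-33 replicate 6 at week 4, against 10.39 to 10.51. At baseline, SEL1L was 10.37 in anti-miR-33 replicate 1, against 9.21 to 9.62. CREB3L3, a liver transcription factor of lipid metabolism, was 6.84 in control replicate 2 at week 12, against 4.89 to 5.54. The source of these single values was not tested.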

How the results depend on the processing

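The counts of members called between the arms stayed at 0 under all alternatives run. The animal, which is the pairing here, mattered most from baseline to week 4: with no replicate block 8 members were called in place of 13, and with the animal as a fixed replicate block 13, 22 and 14 were called from baseline to week 4, week 4 to week 12 and baseline to week 12. Leaving out 1 animal gave 7 to 13, 18 to 21 and 12 to 14; from baseline to week 4 the count was 7 without antimiR33 replicate 2 and 8 without antimiR33 replicate 5. With the RNA 3′ minus 5′ value as a covariate 0 members were called from baseline to week 12. That setting turned the sign of 9, 1 and 8 of the 36 members from baseline to week 4, week 4 to week 12 and baseline to week 12, the farthest being PDIA6, to -0.25 from baseline to week 4. Among those with an unadjusted p below 0.05 it turned, from baseline to week 4, ATF6 (-0.023), DERL2 (-0.018), DNAJC10 (-0.062) and SEL1L (-0.044), and from baseline to week 12, ERO1B (-0.038) and PDIA3 (-0.0042). Averaging all probe sets of a gene reversed DERL2 from baseline to week 4 (-0.043) and CALR from week 4 to week 12 (0.18). Quantile normalization and the shift to one 75th percentile reversed none of the 47 called gene results and ended 6 and 1 of the calls. The number of members with r of at least 0.7 to HSPA5 was 19 in the antimiR33 animals alone and 12 in the control animals alone from week 4 to week 12, and leaving out an animal gave 10 from baseline to week 12 without antimiR33 replicate 4. No share of all tested genes is given beside these counts. The cause of these differences was not tested. RMA values hold no depth, and small changes near the filter, as for ERO1B, rest on signal close to background.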
